A study of Cavia porcellus with 8 samples.

Results

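GPR34 and TLR3, receptors by which cells of the innate immune system sense lipids and RNA, were followed in guinea pig cochleae after electrode insertion. They were represented by 3 of the 13269 features of the array. GPR34 had the features AB159442 and AY241076, named by their GenBank accessions, and TLR3 had 1 feature, DQ415679. The files carry no gene symbols. The TLR3 name comes from the study's list of genes that were higher after insertion, whose printed group averages were matched to the signals within 0.5% or the last printed digit. The GPR34 features were set before the match as those of this gene, and the match only checked them. The GPR34 averages fitted the mean of AB159442 and AY241076 and no other pair among the features whose accessions do not begin with EL or EB. The TLR3 averages fitted DQ415679 alone, with a largest deviation of 0.258%, whereas the next closest feature deviated by 4.36%. The match of TLR3 used all 3 group averages, so its values are a description and were not tested. Both genes belong to a list that the study chose on these same arrays for a rise of 2-fold or more. A rise found here, its size and its call are therefore not independent evidence.

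The cochleae came from male Hartley guinea pigs. In the NOR group 3 animals carried a normal silicone electrode for 7 days, in the DEX group 3 animals carried an electrode of the same kind loaded with dexamethasone for 7 days, and the CNT group was 2 animals without surgery. Both electrodes were dummies without wires or contacts. The controls had no sham operation, so effects of surgery and of the electrode cannot be told apart. The age is 7 weeks in the treatment text and 8 weeks in the sample characteristics of every animal. Labeled cDNA made from total RNA of the whole cochlea was hybridized to 1-color NimbleGen arrays, with 1 array for each animal. The deposited values are linear signal intensities.

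The 8 arrays fell into 2 sets of 4 that shared exactly equal signal values, between 246 and 384 values for arrays of the same set and between 30 and 52 for arrays of different sets. Set A consisted of replicates 1 and 2 of NOR and of DEX, and the median deposited signals of its arrays were 394.8 to 404.6. Set B consisted of replicate 3 of each electrode together with both CNT animals, and its medians were 307.9 to 324.5. The labels name no such sets, and whether the sets were normalized separately before deposit is not known. Both controls lay in set B. Values within the sets are given beside those of GPR34 and TLR3. Signals were quantile-normalized across the 8 arrays on the log2 scale, after which the median feature was 0.01 higher in NOR than in CNT. Cochlear marker genes were not checked here, because the features were not paired with symbols.

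GPR34 is a G protein-coupled receptor known for its expression in microglia, macrophages and mast cells, and lysophosphatidylserine is its best known ligand. TLR3 is a Toll-like receptor of the endosome that recognizes double-stranded RNA and signals through the adaptor TRIF to interferon regulatory factors and NF-κB. The healthy cochlea holds resident macrophages, and insertion of an electrode is known to draw further leukocytes into it. In whole-cochlea RNA, more cells of a type and more RNA per cell cannot be told apart.

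GPR34 was up-regulated after insertion of either electrode, and its signals in NOR and DEX animals overlapped. The normalized signal of AB159442 was 337, 423 and 562 in NOR replicates 1 to 3, 404, 503 and 355 in DEX replicates 1 to 3, and 158 and 165 in the 2 CNT animals. Every implanted animal lay above both controls, and the NOR and DEX animals were interleaved. The NOR mean was 440.6 ± 113.4 (SD, n = 3), the DEX mean was 420 ± 75.6 (SD, n = 3) and the CNT mean was 161 ± 4.87 (SD, n = 2).

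The second GPR34 feature also separated implanted animals from controls. The normalized signal of AY241076 was 477, 569 and 741 in NOR replicates 1 to 3, 554, 755 and 466 in DEX replicates 1 to 3, and 240 and 266 in CNT. The lowest implanted animal was again above the higher control, and DEX replicate 2 and NOR replicate 3 were the highest animals. The NOR mean was 596 ± 134 (SD, n = 3), the DEX mean was 591 ± 148 (SD, n = 3) and the CNT mean was 253 ± 18.2 (SD, n = 2).

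**Figure D1:**
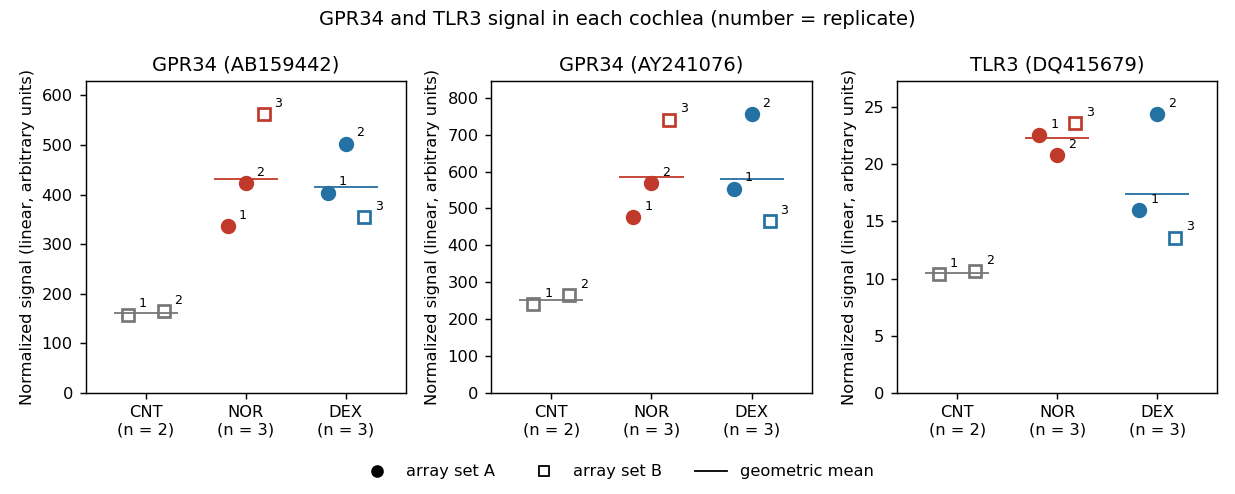
Normalized linear signal (arbitrary units, axis from 0) of each feature in each animal, with the group on the horizontal axis, the replicate number beside each point and the geometric mean of the group as a line. Filled circles are array set A and open squares array set B. For each feature all implanted animals lie above both CNT animals, and NOR and DEX animals overlap.

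Between NOR and CNT, AB159442 rose by a log2 value of 1.42 (SE 0.23, limma adjusted p = 0.0168), or 2.67-fold with a 95% interval of 1.86 to 3.85. AY241076 rose by 1.22 (SE 0.24, limma adjusted p = 0.0278), or 2.32-fold with an interval of 1.58 to 3.42. Both GPR34 features were called higher in NOR, against 1.34% of all features. The study had listed GPR34 for such a rise on these arrays, so the call beside this share is a description. The call required an adjusted p under 0.05 over all features and a change of 2-fold or more. The NOR and CNT animals did not overlap in either feature, with the NOR animals higher. Over the whole array 25.5% of features were arranged in this way. With both features averaged and fitted as a single gene, GPR34 rose by 1.30 (SE 0.23, limma adjusted p = 0.0216).

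Both calls were lost in some settings. By the methods' t-test on the normalized signals both features passed at an unadjusted p under 0.05 and 2-fold or more, as did 1.06% of all features with NOR higher. After Benjamini-Hochberg adjustment neither passed, and 0 of 13269 features of the array did at 2-fold or more (0%). With normalized signals raised to a floor of 20, the limma adjusted p of AY241076 was 0.0546. Leaving out single animals also ended calls. The adjusted p of AB159442 from limma was 0.0552 without NOR replicate 2, 0.119 without CNT replicate 1 and 0.0883 without CNT replicate 2. That of AY241076 was 0.0767, 0.173 and 0.122 in the same order, and 0.056 without DEX replicate 1, which enters only through the shared spread. The log2 change itself stayed between 1.23 and 1.597 for AB159442 and between 1.05 and 1.36 for AY241076 when each animal was left out in turn.

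Against the same CNT animals the DEX group had a similar GPR34 rise. AB159442 was higher in DEX by a log2 value of 1.37 (SE 0.23, limma adjusted p = 0.0248), which is 2.58-fold with a 95% interval of 1.79 to 3.71. AY241076 was higher by 1.20 (SE 0.24, limma adjusted p = 0.0357), which is 2.30-fold with an interval of 1.56 to 3.38. Both features were called, against 0.957% of all features called higher in DEX. Again no DEX animal overlapped a control, an arrangement shown by 25.4% of all features with DEX higher.

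In DEX the methods' t-test passed AB159442 alone of the GPR34 features before adjustment, beside 0.821% of all features with DEX higher. After adjustment it passed neither feature and 1 of 13269 in all at 2-fold or more (0.00754%). With the floor of 20 the limma adjusted p of AY241076 was 0.0625. The calls in DEX were also lost without single animals. For AB159442 the limma adjusted p was 0.0505 without NOR replicate 2, 0.0941 without DEX replicate 1, 0.0726 without DEX replicate 2, 0.169 without CNT replicate 1 and 0.121 without CNT replicate 2. For AY241076 it was 0.0689, 0.118, 0.0855, 0.223 and 0.151 in the same order. The comparisons of NOR and of DEX with CNT share the control animals.

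The direct comparison of DEX with NOR was made for dexamethasone itself. The log2 difference was -0.05 (SE 0.20, limma adjusted p = 1) for AB159442 and -0.02 (SE 0.22, limma adjusted p = 1) for AY241076. The 95% interval of the ratio of DEX to NOR ran from 0.697 to 1.34 for AB159442 and from 0.70 to 1.40 for AY241076. The limma fit called 0 features of the whole array in this comparison, a share of 0%, with 329 features (2.48%) at an unadjusted p under 0.05 and 0 by the methods' t-test on the normalized signals after Benjamini-Hochberg adjustment.

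The near-zero mean difference was made of opposite differences in the 2 array sets. In set A, with 2 animals per electrode, DEX was higher than NOR by 0.26 on the log2 scale for AB159442 and by 0.31 for AY241076. In set B, with 1 animal per electrode, DEX replicate 3 was lower than NOR replicate 3, with log2 differences of -0.66 and -0.67. The values of the 2 sets were thus 0.92 apart for AB159442 and 0.98 apart for AY241076, a description that rests in set B on 1 animal of each electrode. The direction of the mean difference in GPR34 depended on single animals. Without NOR replicate 3 it was 0.14 and 0.15 for the 2 features, and without DEX replicate 3 it was 0.06 and 0.14. For AY241076 it was also 0.02 without DEX replicate 1.

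The comparison with the controls of the same array set was possible only for replicate 3. In set B, NOR replicate 3 was 3.48-fold and 2.94-fold above the mean of the controls in AB159442 and AY241076. DEX replicate 3 was 2.20-fold and 1.85-fold above it. With array set entered in the model, the log2 change of NOR against CNT was 1.49 for AB159442 (limma adjusted p = 0.0129) and 1.23 for AY241076 (limma adjusted p = 0.0261), and that of DEX against CNT was 1.44 (limma adjusted p = 0.0185) and 1.21 (limma adjusted p = 0.0328).

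**Figure D2:**
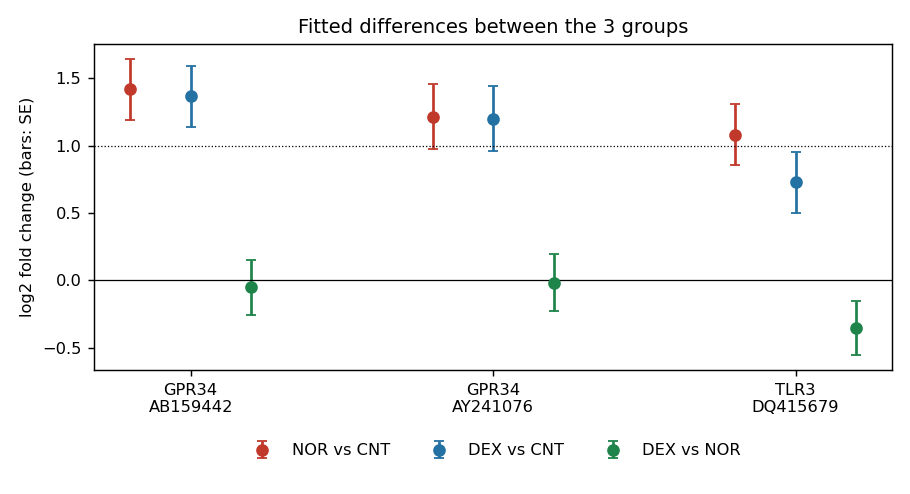
Log2 fold change of each feature (vertical axis, log2 units) in the 3 comparisons, as points with the SE of the fit across 8 arrays. The dotted line marks a 2-fold change. Both GPR34 features lie above it against CNT and at about 0 in DEX against NOR, whereas TLR3 lies at 1.08, 0.73 and -0.35.

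The 2 GPR34 features moved closely together from animal to animal. Their log2 signals had a Pearson r of 0.992 over the 8 arrays and of 0.969 for deviations from the group means. These values describe features of the same gene on the same arrays. The difference AB159442 minus AY241076 on the log2 scale had a NOR mean of -0.44 ± 0.05 (SD, n = 3), a DEX mean of -0.48 ± 0.10 (SD, n = 3) and a CNT mean of -0.65 ± 0.06 (SD, n = 2). It differed by 0.20 between NOR and CNT, by 0.17 between DEX and CNT and by -0.03 between DEX and NOR. A 2-sided exact permutation test cannot go below p = 0.1 with this number of animals, so these differences are given as values with no call.

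TLR3 had a higher signal in every implanted animal than in the controls, an arrangement shared by 25.5% of all features in NOR and 25.4% in DEX, and its signal lay near the bottom of the array. The deposited signal of DQ415679 was 21.3, 19.6 and 24.4 in NOR replicates 1 to 3, 15.7, 22.7 and 13.6 in DEX replicates 1 to 3, and 10.2 and 10.98 in CNT. After normalization the log2 signals lay between 4.38 and 4.56 in NOR and between 3.76 and 4.61 in DEX, and were 3.38 and 3.41 in CNT. On this scale the NOR animals lay close together, while the DEX animals spread from just above the controls to above all NOR animals. In the deposited signals DEX replicate 2 lay below NOR replicate 3.

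The normalized TLR3 signal had a NOR mean of 22.3 ± 1.42 (SD, n = 3) and a DEX mean of 17.98 ± 5.66 (SD, n = 3), and the CNT mean was 10.51 ± 0.15 (SD, n = 2). The log2 difference from CNT was 1.08 (SE 0.23) for NOR, or 2.12-fold, and 0.73 (SE 0.23) for DEX, or 1.66-fold. A fitted change of 2-fold or more in NOR against CNT was reached by 1.75% of all features. The log2 difference between DEX and NOR was -0.35 (SE 0.20), a ratio of 0.782, and the animals of these groups overlapped, as they did in both GPR34 features. Over the whole array the NOR and DEX animals were apart in 5.45% of features. Without DEX replicate 2 this difference was -0.60, and without DEX replicate 3 it was -0.17.

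By array set, the log2 difference in TLR3 between DEX and NOR was -0.13 in set A and -0.80 in set B. In set B NOR replicate 3 was 2.24-fold and DEX replicate 3 was 1.29-fold above the mean of the controls. With array set entered in the model the log2 differences from CNT were 0.94 for NOR and 0.59 for DEX.

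How far the TLR3 signal lay above background is not known, because the table holds no detection calls. Of all features, 13% had a mean deposited signal at or under that of TLR3. In the controls the TLR3 feature stood at percentiles 4.54 and 4.85 of its array, in NOR between 17.43 and 20.02, and in DEX between 9.05 and 20.7. The GPR34 features stood between percentiles 41.4 and 58.2 of the 8 arrays. These ranks order probe signals and not transcript amounts. When normalized signals were raised to a floor of 20, which took in both controls and 2 DEX animals, the log2 difference in TLR3 between NOR and CNT was 0.16 instead of 1.08.

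The receptors were set beside 16 further genes of the same study list, grouped as other G protein-coupled receptors, products that Toll-like receptor and NF-κB signaling is known to induce, and proteins of macrophages and microglia. Of these genes, 13 matched 1 feature each and 3 matched the mean of a pair of features. They were all chosen by the study for a rise on these arrays, and identified through their group averages, so that their values and counts are a description from which nothing is read. For comparison, 1.34% of all features passed the call higher in NOR and 0.957% in DEX.

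Among the other G protein-coupled receptors were C3AR1, which binds the complement fragment C3a, LTB4R, which binds leukotriene B4, and PTGER4, a prostaglandin E2 receptor. Their log2 differences between NOR and CNT were 0.90 (SE 0.26), 1.43 (SE 0.39) and 1.20 (SE 0.34), with a median of 1.20 against 0.01 over all features. In DEX against CNT the median was 0.82. In both comparisons 0 of 3 met the thresholds of the call, and whether their changes differed from those of GPR34 was not tested. In array set B the differences between NOR replicate 3 and the controls were 1.43, 2.26 and 1.13. The mean normalized signal of PTGER4 in CNT was 9.48, below that of TLR3, so its distance from background is also unknown.

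Of the 7 genes known to be induced through Toll-like receptors and NF-κB, 4 met the thresholds in NOR, beside 1.34% of all features. These were the cytokines TNF-alpha (log2 difference 1.63, SE 0.27), IL-1beta (1.79, SE 0.33) and IL-15 (1.56, SE 0.31) and the monocyte chemoattractant CCL2 (2.41, SE 0.42). The chemokines CCL5 and CXCL1 and the prostaglandin-forming enzyme COX-2 did not, with log2 differences of 1.09, 1.25 and 1.24. The mean normalized signals of COX-2 were 7.12 in CNT, 16.9 in NOR and 14.8 in DEX, below those of TLR3 in each group. The median of the 7 genes was 1.56 in NOR and 1.19 in DEX. In DEX against CNT 4 genes met the thresholds, beside 0.957% of all features, here TNF-alpha, IL-15, CCL2 and CXCL1. In set B the log2 difference of IL-1beta from the controls was 1.59 in NOR replicate 3 and 0.52 in DEX replicate 3, and that of TNF-alpha was 1.59 and 0.58.

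Of the 7 genes of macrophages and microglia, 4 met the thresholds in NOR, beside 1.34% of all features, and 4 in DEX, beside 0.957%. MHC class II, which presents antigen, differed by 1.25 between NOR and CNT (SE 0.16) and by 1.46 within set B. The Fc-gamma receptor features GPIFCGRB1 to GPIFCGRB3, for receptors that bind antibody, differed by 2.04, 1.84 and 2.15. The study gives all of them the same product name, Fc-gamma-1/gamma-2 receptor precursor, so their calls may stand for a single receptor. In DEX the differences of these features were 2.68, 2.51 and 2.90, and that of CD18 was 1.11 (SE 0.25). The study lists CD18 under this symbol but describes it as leukocyte adhesion glycoprotein Mo1-alpha. Which of these names fits the feature was not checked. The oxidase subunit CYBA and C3AR1 met the thresholds in neither group, with log2 differences from 0.61 to 0.90. The median of the list was 1.25 in NOR and 1.11 in DEX. The summed normalized signal of the 7 genes was 10869 to 19078 in NOR, 13756 to 17055 in DEX and 5713 to 5979 in CNT, so that implanted animals and controls did not overlap, as in 25.5% of single features for NOR and 25.4% for DEX. In NOR and DEX it was highest in NOR replicate 3 and DEX replicate 2, as were both GPR34 features. The signals were summed without scaling, so MHC class II (NOR mean 3825) weighed far more than CD18 (NOR mean 210). The part of these genes in the GPR34 and TLR3 differences was not tested.

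**Figure D3:**
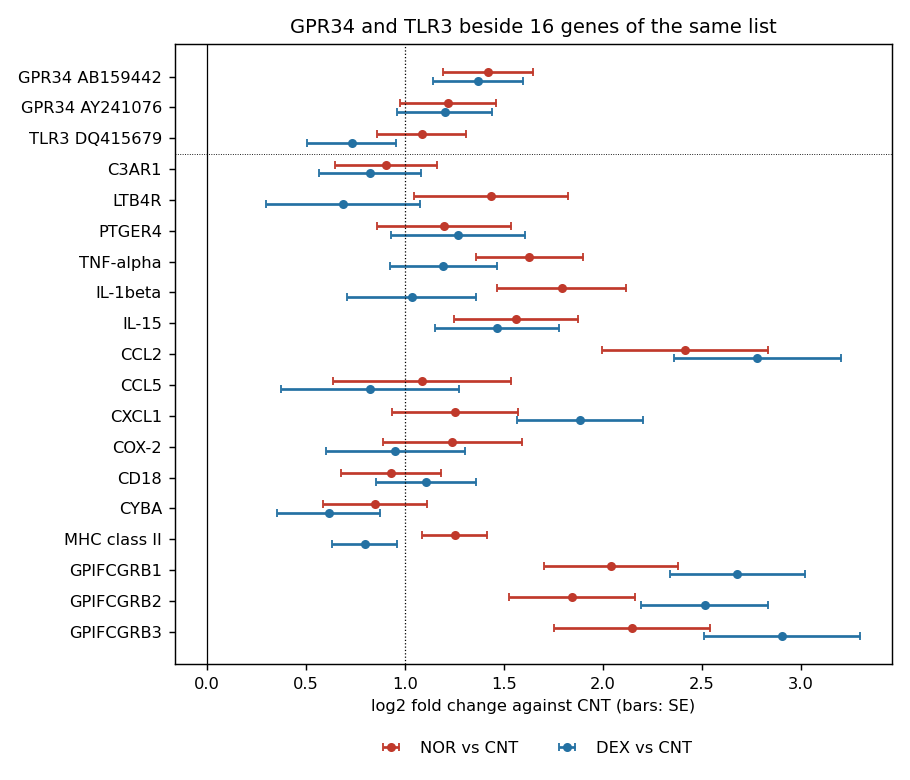
Log2 fold change against CNT (horizontal axis, log2 units, bars SE) of the GPR34 and TLR3 features and of 16 genes of the same study list, for NOR and DEX. The dotted vertical line marks 2-fold. All points lie above 0, and the Fc-gamma receptor features and CCL2 lie farthest to the right.

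In DEX against NOR 0 of the 16 genes met the limma threshold, beside 0% of all features. The log2 differences ran from -0.76 in IL-1beta to 0.76 in GPIFCGRB3, with a median of -0.09. Every DEX animal lay below every NOR animal in IL-1beta and MHC class II (-0.45), 2 of the 16 genes, and 5.45% of all features kept the groups apart in either direction. Among the animals of set A, 9 of the 16 genes were higher in DEX, beside 49% of all features. In set B 15 of the 16 were lower, beside 50.9% of all features, the exception being CXCL1. In all 16 genes, as in the 3 GPR34 and TLR3 features, the value was lower in set B than in set A, which was the case for 50.4% of all features. CCL2 differed by 0.86 in set A and by -0.62 in set B, and C3AR1 by 0.25 and -0.75. Because set B holds 1 animal of each electrode, array set and animal cannot be told apart here.

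**Figure D4:**
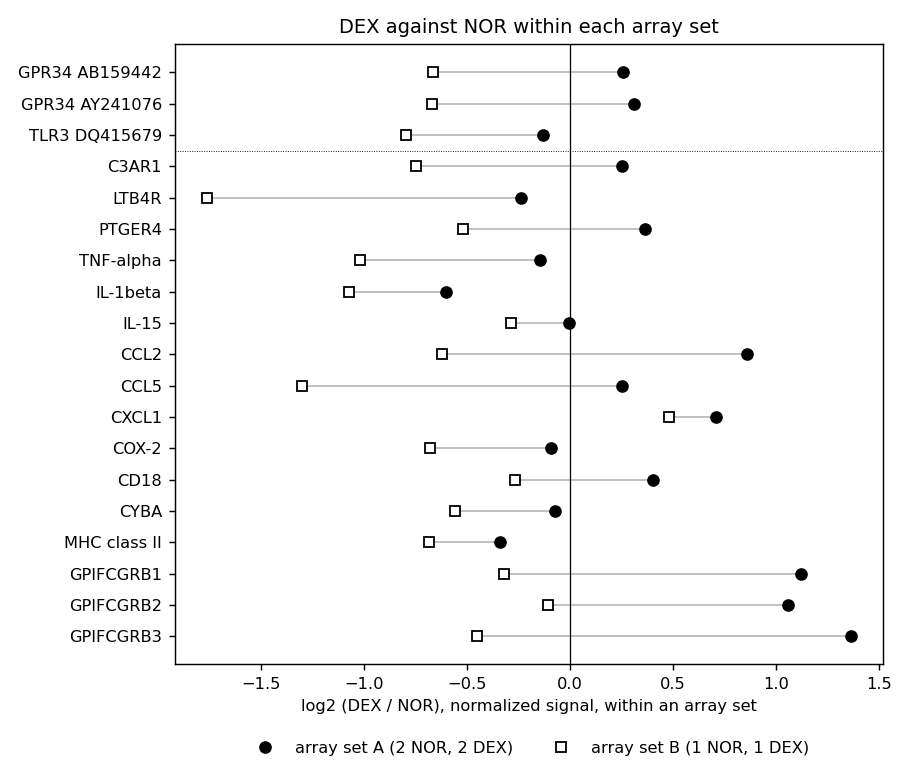
Log2 ratio of DEX to NOR (horizontal axis, log2 units) within array set A (filled circles, 2 animals per electrode) and set B (open squares, 1 animal per electrode). The GPR34 features lie at 0.26 and 0.31 in set A and at -0.66 and -0.67 in set B, and every open square lies to the left of its filled circle.

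The features most like each receptor over the 8 arrays were ranked by the Pearson r of their log2 signals, as a description of arrays that share groups and array sets. For each GPR34 feature the most similar of all features was the other one. The next for AB159442 was X60128, for which the files give no gene name, with an r of 0.991. The 5 features nearest to AB159442 had an r of 0.986 or more. For DQ415679 the nearest was EL935958, also unnamed, with an r of 0.987, and the r of DQ415679 with the GPR34 features was 0.884 and 0.904. Among the 16 genes, C3AR1 had the highest r with both GPR34 features, 0.946 with AB159442 and 0.951 with AY241076. GPIFCGRB3 followed closely with 0.945 and 0.946. COX-2 had the highest r with TLR3, 0.940, followed by TNF-alpha with 0.927. The mean normalized CNT signals of COX-2 and TNF-alpha were also low, at 7.12 and 16.8.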

How the data were processed

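Total RNA of 8 cochleae was converted to cDNA, which was labeled with Cy3 and hybridized to 1-color NimbleGen arrays. Per the paper's methods, the authors scanned the arrays and extracted signals with Agilent software. The submitters' processing notes name RMA, and background correction is not given in the sources used here. The authors deposited linear signal intensities, 1 per feature and array, for 13269 features with 0 missing values. No accession matched the RefSeq gene table (0 of 13269 features).

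Quartiles and medians differed between arrays by up to 0.39 (log2), above the limit of 0.05, so log2 signals were quantile-normalized. A limma model of the 3 groups was fitted to all features without covariates, with Benjamini-Hochberg adjustment over all features in each comparison. The fold minimum of 2 did not apply to DEX against NOR. The members, lists, thresholds and alternatives were chosen with earlier results of these data known. Named genes were the receptors, 3 lists from the study's table and the 5 features most correlated with each receptor. The Toll-like receptor pathway and cell type marker lists planned by symbol could not be used.

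Alternatives were other normalizations, a filter on the lowest 25% of features, a floor, the methods' t-test, other variance models, array weights, the array set, a replicate block, and leaving out each animal. Equal replicate numbers in NOR and DEX had correlated residuals across features (0.221, 0.360 and 0.526, each above 0.1), whereas unequal numbers gave 0.205 and 0.328 for arrays of the same set and -0.436 to -0.272 for arrays of different sets. The procedure was tested on simulated data for NOR against CNT with 13269 features, where it recovered 92 of 100 features changed by 1.5 (log2) and 99 of 100 changed by 3, with 2 false calls. The simulated features were independent and had no array sets, and the smaller change exceeded those of GPR34. These counts therefore do not cover the real arrays, where both controls lay in set B. R 4.3.3, limma 3.58.1, numpy 2.4.6, pandas 2.3.3 and matplotlib 3.10.9 were used. No sequencing depth applies, and the number of arrays limits the precision.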

Additional observations from a re-analysis of the deposited data

How the results depend on the processing

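The direction of GPR34 and TLR3 against CNT held in every alternative run, and the GPR34 calls against CNT did not. The methods' t-test was run here on the normalized linear signals of single features, not on the deposited signals of a gene's averaged features. After Benjamini-Hochberg adjustment both GPR34 features were lost in NOR (log2 ratio of linear averages 1.45 and 1.24) and in DEX (1.38 and 1.23), where 0 and 1 of all 13269 features passed at 2-fold or more, and AY241076 in DEX (1.23) also missed the threshold before adjustment. A floor of 20 ended the call of AY241076 in NOR (1.22, limma adjusted p = 0.0546) and in DEX (1.20, limma adjusted p = 0.0625), although its own signals were above the floor. With each animal left out in turn, AB159442 ranged from 1.23 to 1.597 in NOR, from 1.23 to 1.48 in DEX and from -0.23 to 0.14 in DEX against NOR. AY241076 ranged from 1.05 to 1.36, from 1.01 to 1.36 and from -0.21 to 0.15, and TLR3 from 1.04 to 1.13, from 0.49 to 0.91 and from -0.60 to -0.17. The reversals of DEX against NOR among these were 0.14 and 0.15 without NOR replicate 3, 0.06 and 0.14 without DEX replicate 3, and 0.02 for AY241076 without DEX replicate 1. Array weights also reversed AY241076, to 0.017.

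Within array set A the log2 values of DEX against NOR were 0.26 and 0.31 for the GPR34 features. Within set B they were -0.66 and -0.67, and -0.80 for TLR3. Against CNT in set B, NOR had 1.80 and 1.55 for GPR34, and DEX had 0.88 for AY241076 and 0.37 for TLR3. The difference between the GPR34 features, DEX minus NOR, was 0.0067 in set B. The floor of 20 brought TLR3 to 0.16, 0.095 and -0.060 in NOR against CNT, DEX against CNT and DEX against NOR, and median centring brought it to 0.77 and 0.45 against CNT. Median centring put the median feature at -0.11 in NOR against CNT and the signals as deposited put it at 0.15. TLR3 was removed by the filter on the lowest 25% of features and has no value there. The replicate block changed no call, with values in NOR against CNT of 1.38 and 1.21 for GPR34 and 1.15 for TLR3. The cause of these shifts was not tested. For all results, signal over background is unknown. Among the GPR34 and TLR3 features, TLR3 had the lowest signals. Of the listed genes, COX-2 had lower mean normalized signals than TLR3, at 7.12 in CNT, 16.9 in NOR and 14.8 in DEX.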
